A study of Homo sapiens with 41 samples.

Results

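PAEP, UCN2, STC1 and STC2 are 4 human genes whose products are secreted. They were taken as the rows with these symbols, and each symbol was found once in all 6 deposited tables, among 21375 genes listed in every table. The 4 genes were chosen by measured values of these same libraries: by the difference between each drug group and the vehicle of its table, by both times in A375 culture, and by A375R beside A375 tumours. The levels in those comparisons are therefore given as a description, with no test. The measurement was RNA sequencing of 41 samples in 15 groups. Vemurafenib, an inhibitor of mutant BRAF, was given to the human melanoma lines A375, Colo800 and UACC62. H3122 is a human lung adenocarcinoma line and was treated with crizotinib, an inhibitor of ALK. Whole RNA came from culture: A375 under vehicle or 0.1 µM vemurafenib for 6 h or 48 h (n = 3 each), Colo800 and UACC62 under vehicle or 1 µM vemurafenib for 48 h (n = 2 each), and H3122 under vehicle or 0.3 µM crizotinib for 48 h (n = 2 each). RNA bound to ribosomes, pulled down on GFP beads, came from subcutaneous tumours in mice. Some of these tumours held A375 cells under vehicle or 10 doses of 75 mg/kg vemurafenib (n = 4 each). Others held A375R, known as a vemurafenib-resistant derivative of A375, under vehicle or the same doses (n = 3 each). Titles of the A375R drug libraries add 10d (vem10d), while those of the A375 tumours name vemurafenib with no time. The A375R tumours were of a pair of kinds, read from the titles and the growth protocol as A375R alone and as A375R mixed with A375. Titles of tumour tables name RPL10a, a ribosomal protein; the labels do not say which cells of a mixed tumour carry a tag, so it is an assumption that mixed tumours report A375R cells. Culture and tumour differ in both place and kind of RNA, and these cannot be told apart. Nor does a bulk value tell fewer cells of a type from less RNA per cell. Nothing in the labels says whether replicates are separate cultures or mice, and the p-values therefore reflect only the variation among the sequenced samples, part of which may be technical.

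PAEP encodes glycodelin, a secreted glycoprotein of the lipocalin family that is best known from the endometrium under progesterone and from early pregnancy, and that is also made by some melanomas. UCN2 encodes urocortin 2, a peptide of the corticotropin-releasing factor (CRF) family that acts through the receptor CRHR2. STC1 and STC2 encode stanniocalcins, glycoprotein hormones first described in fish as regulators of calcium. Both inhibit PAPP-A, the protease that frees IGF from its binding proteins, and STC1 is a known target of HIF while STC2 is a known target of ATF4.

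The sequences just upstream of PAEP, UCN2 and STC2 are shown because these 3 genes differ in the data in where they were low under drug, and because the MAPK pathway that vemurafenib blocks is known to act on AP-1. They come from RefSeq (GRCh38.p14) and hold the 250 bases before the start, 5′ to 3′ in the direction of the gene. Upstream windows were available for 3 of the 4 genes. RefSeq places STC1 as well, but its window was not among those available, so STC1 was not searched for any motif. Capitals mark every match to TGANTCA, the AP-1 site, searched on both strands (the motif is its own reverse complement). The windows are chr9:135561506-135561755 on the plus strand for PAEP, chr3:48563782-48564031 on the minus strand for UCN2 and chr5:173328415-173328664 on the minus strand for STC2. RefSeq places LOC124901137 over the STC2 window and no gene over the others.
PAEP: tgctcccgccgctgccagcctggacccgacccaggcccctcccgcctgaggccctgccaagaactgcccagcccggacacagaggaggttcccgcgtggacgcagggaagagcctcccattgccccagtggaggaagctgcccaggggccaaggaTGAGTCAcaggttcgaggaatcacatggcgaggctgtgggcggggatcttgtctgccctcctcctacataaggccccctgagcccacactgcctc
UCN2: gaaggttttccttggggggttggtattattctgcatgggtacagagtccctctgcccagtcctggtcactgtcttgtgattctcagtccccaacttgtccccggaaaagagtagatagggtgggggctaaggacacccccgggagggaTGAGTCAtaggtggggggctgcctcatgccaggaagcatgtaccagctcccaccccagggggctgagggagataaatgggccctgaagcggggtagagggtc
STC2: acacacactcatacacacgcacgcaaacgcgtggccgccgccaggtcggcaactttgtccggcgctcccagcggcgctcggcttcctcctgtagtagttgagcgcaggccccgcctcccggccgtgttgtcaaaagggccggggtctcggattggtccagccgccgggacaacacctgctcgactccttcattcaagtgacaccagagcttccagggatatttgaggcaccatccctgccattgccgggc
PAEP held 1 match, TGAGTCA, from -95 to -89 relative to the start, and UCN2 held 1 match with the same letters from -102 to -96. STC2 held none of these letters in this window, and nor did the windows of OBP2A and LCN1, neighbours of PAEP that are described with it. Of 34943 upstream windows of the same length in RefSeq, 6.59% held TGANTCA. Other motifs were searched on both strands too. TGACGTCA, the cAMP response element, was in none of the 3 windows and in 1.63% of all windows, and TGATGNAA, the element bound by ATF4 with C/EBP partners, was in none of them and in 3.15% of all. CACATG, an E-box read by MITF among others, stood once in PAEP, from -74 to -69, and in 9.45% of all windows. ACGTG or GCGTG, the core of the HIF element, stood once in PAEP and 3 times in STC2, not in UCN2, and in 43.2% of all windows. A match describes letters and not binding, which was not measured here.

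Depth ran from 8063754 to 42843612 reads per library, highest in the A375R table. Values are normalised reads, that is reads divided by the size factor of a library. Levels are mean ± SD and log2 changes are ± SE; levels set beside each other across tables are CPM, counts scaled to a library total of 1000000. SPRY4 and DUSP6, feedback genes of MAPK signalling, read the drug. SPRY4 fell with limma in 7 of the 8 drug comparisons, by 2.59 to 8.16 on the log2 scale in the 6 without A375R and by 0.81 in mixed A375R tumours, and DUSP6 fell in those 6. Neither passed in A375R alone (SPRY4 -0.39 ± 0.13 (SE), adjusted p = 0.122; DUSP6 -0.39 ± 0.14, adjusted p = 0.15). The summed level of 8 melanocytic markers was 92.7 to 137 CPM in A375 tumours under vehicle, with TYR and DCT at 0, and 587 to 637 under vemurafenib. It was 796 to 1029 in A375 culture under vehicle, 1840 to 14500 over the Colo800 and UACC62 libraries, and 11.8 to 54.1 in A375R tumours, where TYR was at 0 in every group. The defining pigment genes of the labelled cell type (MLANA, PMEL, TYR, DCT and TYRP1) were each under 1 CPM on average in A375R. The same held in A375 tumours under vehicle or vemurafenib and in A375 culture under vehicle. SOX10 made up most of the sum in A375 culture under vehicle (733 to 939 CPM) and in treated A375 tumours (403 to 457). H3122 held 5574 to 9415 CPM of 8 lung epithelial markers. In tumours the marker sum of endothelial cells stayed at or under 2.35 CPM, that of leukocytes (nearly all CD68) ran from 38.7 to 264, that of fibroblasts from 34.7 to 105 and that of keratinocytes (nearly all KRT10) from 70.3 to 106.

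Compared with vehicle, the 4 genes were lower under drug in most lines and tumours that lack A375R. In A375 culture at 6 h, 2 of the 4 genes (UCN2 and STC1) had every drug library below every vehicle library, as did 11.9% of all genes that passed the minimum (by limma 3.33% were called lower and 1.07% higher). At 48 h there were 3 such genes (UCN2, STC1 and STC2), beside 30.2% of all genes (25.6% called lower, 24.3% higher). Colo800 had all 4, beside 43.1% (37.3% called lower, 36.0% higher), though PAEP was under the minimum there, with 3 and 4 reads under vehicle. UACC62 had 2 (UCN2 and STC1), beside 40.2% (29.6% called lower, 26.9% higher). H3122 under crizotinib had all 4, beside 37.7% (24.0% called lower, 22.1% higher), with STC1 under the minimum. A375 tumours had all 4, beside 30.2% (34.0% called lower, 34.2% higher). A375R alone had 2 (PAEP and STC2), beside 12.7% (0.487% called lower, 0.305% higher), and mixed A375R tumours had 1 (UCN2), beside 11.2% (2.23% called lower, 1.24% higher). The rule chose the genes on these contrasts, so the shares of all genes are given beside the counts and nothing is read from them. The A375 culture comparisons share their vehicle libraries.

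**Figure D1:**
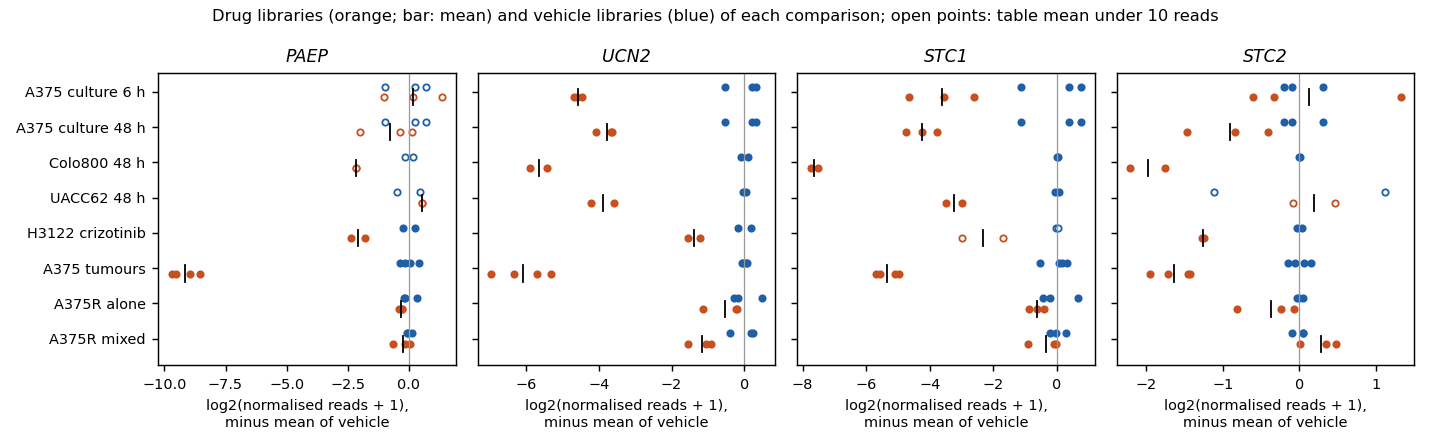
log2(normalised reads + 1) of each drug library (orange, bar at the mean) and each vehicle library (blue) of 8 drug comparisons, minus the mean of the vehicle libraries, for PAEP, UCN2, STC1 and STC2; open points mark genes with a table mean under 10 reads. PAEP is far to the left in A375 tumours (-9.17) and near 0 in A375R (-0.32 and -0.24). UCN2 and STC1 lie left of 0 in all 6 comparisons without A375R. They lie less far left in A375R alone and mixed (UCN2 -0.53 and -1.18, STC1 -0.64 and -0.35). STC2 lies on both sides.

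PAEP was high in A375 tumours under vehicle, very low in treated A375 tumours, and close to 0 in all 3 melanoma cultures. The 4 vehicle libraries of A375 tumours held 2303, 2709, 3113 and 4030 normalised reads (3039 ± 739, n = 4), and the 4 vemurafenib libraries held 3.03, 5.08, 7.06 and 2.57 (4.44 ± 2.06, n = 4). Every treated tumour was far below every vehicle tumour, and the means differed 685-fold. Between 3 and 9 reads lay behind each treated library, so the low level has a wide counting error. The melanocytic marker sum was higher in the treated tumours (587 to 637 CPM, beside 92.7 to 137) and that of the lung epithelial list, here KRT18 and KRT8, was lower (262 to 307, beside 466 to 541). Their part in the PAEP difference was not tested. In A375 culture the same gene had 1, 5 and 4 reads under vehicle, 1, 11 and 3 at 6 h and 0, 2 and 3 at 48 h. PAEP therefore did not pass the minimum mean of 10 in that table, nor in Colo800 (3 and 4 reads under vehicle, 0 and 0 under vemurafenib) or UACC62 (1 and 0, then 1 and 1). In CPM, A375 tumours under vehicle stood at 228.5 ± 49.9 and A375 culture under vehicle at 0.292 ± 0.190, without overlap. H3122, a lung line, had 107 and 151 normalised reads under vehicle and 36.2 and 23.6 under crizotinib, a 4.31-fold difference of the means.

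PAEP was still high in A375R tumours under drug. Alone, they held 5772, 3916 and 4125 normalised reads under vehicle and 3736, 3430 and 3704 under vemurafenib; the drug libraries lay just below the vehicle ones, and the means differed 1.27-fold. Mixed with A375, they held 3170, 3100 and 3540 under vehicle and 2971, 2107 and 3382 under vemurafenib, and the groups overlapped. In CPM, A375R alone under vehicle (126 ± 26.3) was 1.81-fold below A375 tumours and mixed tumours (107 ± 12.7) 2.15-fold below, without overlap in either case. Under vemurafenib the order turned, with 113 ± 4.14 in A375R alone beside 0.279 ± 0.132 in A375 tumours. Fibroblast markers moved with the drug in A375R alone, from a sum of 34.7 to 43.5 CPM under vehicle to 78.1 to 105 under vemurafenib, and in mixed tumours, from 36.5 to 74.0 to 82.6 to 91.7. The leukocyte sum, nearly all CD68, was 214 to 264 in A375R alone under vehicle and 117 to 185 under vemurafenib, and 120 to 161 and 142 to 228 in mixed tumours, beside 38.7 to 61.5 in A375 tumours. The part of these markers in the A375R values, of PAEP as of the other 3 genes, was not tested. The vehicle comparison depends on the scaling. With upper-quartile scaling the log2 ratio of A375R alone to A375 tumours was -0.22 for PAEP, in place of -0.85, and that of mixed tumours -0.66, in place of -1.10.

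Genes of the lipocalin family next to PAEP gave values that the choice of the 4 genes did not use, though the list was drawn up with earlier results of these data known. OBP2A, an odorant-binding protein, and LCN1, tear lipocalin, are neighbours of PAEP in the RefSeq gene order on chromosome 9, and OBP2A is the nearest listed gene on one side. In A375 tumours LCN1 held 3183, 4317, 4636 and 6738 normalised reads under vehicle and 15.1, 33.5, 13.3 and 16.7 under vemurafenib (limma log2 change -7.87 ± 0.23 (SE), adjusted p = 7.31e-14). The treated and the vehicle tumours did not overlap. OBP2A held 266, 208, 305 and 341 under vehicle, and 1 read in all under vemurafenib, in the fourth library (adjusted p = 3.84e-13 with limma). In A375 culture, LCN1 had no more than 1 read in any library and OBP2A likewise. In A375R alone under vehicle, LCN1 was at 0.737 to 1.43 CPM, beside 246 to 490 in A375 tumours under vehicle. OBP2A was at 4.34 to 6.685 CPM there, beside 15.6 to 24.75. With the drug LCN1 fell in mixed A375R tumours (limma -2.63 ± 0.42, adjusted p = 0.00323), a call lost with no filter (adjusted p = 0.0652). OBP2A has a near-identical copy, OBP2B, and reads of the pair could be split by the counting, so its level is uncertain. Of 18 other lipocalins, 6 passed the minimum in A375 tumours; 2 rose (APOM and APOD), 2 fell (LCN1 and OBP2A), and the median was -0.15 beside 0.00 for all genes. Only 1 rose when any of 7 libraries, all but vehicle replicate 4, was left out. Of all genes tested there, 34.2% were called higher and 34.0% lower. APOD, apolipoprotein D, rose there (0.53 ± 0.20, adjusted p = 0.0250) with groups that overlapped, and its call was lost with DESeq2 (adjusted p = 0.133), with no filter on low genes (adjusted p = 0.206) and when any of 5 libraries was left out (adjusted p = 0.0521 to 0.109). APOD also rose in A375 culture at 48 h (1.44 ± 0.17) and in UACC62 (0.69 ± 0.09), and fell in Colo800 (-1.54 ± 0.05). LCN2, lipocalin 2, fell in Colo800, from 21.2 to 0.479 normalised reads on average, where it passed the minimum mean only through the vehicle libraries. It also fell in H3122 (-2.48 ± 0.34, limma adjusted p = 0.000132), a call lost with no filter (adjusted p = 0.135).

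**Figure D2:**
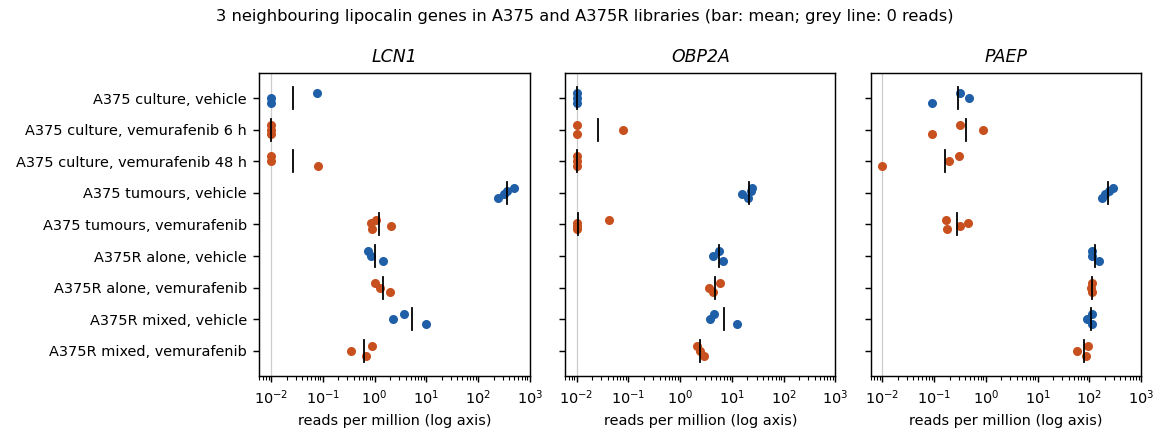
CPM (log axis, grey line at 0 reads) of LCN1, OBP2A and PAEP in every A375 and A375R library, with vehicle in blue, vemurafenib in orange and a bar at the mean. All 3 genes are near 0 in A375 culture and in treated A375 tumours and high in A375 tumours under vehicle, and in the 4 A375R groups PAEP has group means of 79.9 to 126 CPM. In the same A375R groups OBP2A has group means of 2.465 to 6.90 CPM, and LCN1 lies between 0.354 and 9.83 CPM in single libraries.

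PAEP is known as a progesterone and decidual gene, and 13 other genes of that setting were listed beside it. Of the 8 that passed the minimum in A375 tumours, 1 rose and 6 fell (median -0.60, all genes 0.00), and 2 rose without vehicle replicate 1 or 4 or vemurafenib replicate 1 or 3, beside 34.2% of all genes higher and 34.0% lower. DKK1, a Wnt inhibitor, fell from 619 ± 127 to 7.20 ± 0.862 (-6.22 ± 0.16, adjusted p = 2.17e-14), and LIF, a cytokine needed for implantation, from 1491 ± 222 to 282 ± 24.6 (-2.39 ± 0.10). FOXO1, a transcription factor of decidual cells, rose (1.04 ± 0.13, adjusted p = 3.26e-06). LIF fell in the other 5 comparisons without A375R as well, with log2 changes of -2.47 to -7.47, largest in Colo800 (9855 ± 240 to 55.4 ± 11.9). Counts of the list there were 1 lower of 8 at 6 h, 4 higher and 1 lower of 8 at 48 h, 1 higher and 3 lower of 7 in Colo800, 4 lower of 6 in UACC62 (2 without vehicle replicate 1) and 2 higher and 2 lower of 5 in H3122. Of all genes tested, the shares called higher and lower were 1.07% and 3.33% at 6 h, 24.3% and 25.6% at 48 h, 36.0% and 37.3% in Colo800, 26.9% and 29.6% in UACC62 and 22.1% and 24.0% in H3122. Counts near these shares are no result about a list. In A375R alone none of 9 passed with limma (1 lower at an unadjusted p under 0.05, none with edgeR or DESeq2), and in mixed tumours DKK1 rose (0.70 ± 0.17, adjusted p = 0.0302), a call lost with no filter (adjusted p = 0.161) and when any of 4 libraries was left out (adjusted p up to 0.137). The shares of all genes there were 0.305% higher and 0.487% lower alone, and 1.24% and 2.23% mixed.

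UCN2 was low under vemurafenib in every melanoma culture and in A375 tumours. In A375 culture it held 642, 1061 and 1163 normalised reads under vehicle (955 ± 276, n = 3), 35.4, 37.2 and 41.1 at 6 h and 53.8, 72.3 and 74.0 at 48 h. The means were 25.2-fold and 14.3-fold below vehicle; the 48 h libraries all lay above the 6 h ones (1.76-fold). Colo800 had 573 and 503 under vehicle and 8.10 and 11.5 under vemurafenib, 54.9-fold lower. UACC62 had 383 and 356, then 30.0 and 19.0, 15.1-fold lower. In A375 tumours the vehicle libraries were tight, at 537, 545, 500 and 507, and the treated ones held 9.08, 12.2, 5.49 and 3.22, 69.7-fold lower. H3122 started from a low level, 42.3 and 33.3, and stood at 12.1 and 15.4 under crizotinib (2.75-fold lower).

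In A375R tumours the UCN2 differences were 1.43-fold and 2.28-fold. Alone, the values were 568, 333 and 360 under vehicle and 347, 351 and 187 under vemurafenib, with overlap. Mixed tumours had 613, 395 and 595 under vehicle and 179, 276 and 250 under vemurafenib, 2.28-fold lower and without overlap. Mixed tumours under vehicle also held more of some melanocytic genes. SOX10, a transcription factor of the melanocyte lineage, was at 1021, 508 and 837 there, against 129, 55.8 and 118 in A375R alone, and at 91.7, 254 and 59.5 in mixed tumours under vemurafenib. APOD rose in mixed against alone tumours under vehicle (2.46 ± 0.860 to 98.2 ± 55.2; 4.73 ± 0.54, adjusted p = 0.000137) and fell with the drug in mixed tumours (-4.31 ± 0.54, adjusted p = 0.000669). Of 5 lipocalins tested between mixed and alone tumours under vehicle, APOD and LCN1 rose and none fell with limma, beside 1.93% of all genes higher and 1.37% lower. None fell with edgeR or DESeq2 either, and 2 had lower values at an unadjusted p under 0.05. The LCN1 call (1.91 ± 0.42, adjusted p = 0.0198) was lost with no filter (adjusted p = 0.161) and when any of 3 libraries was left out: without mixed vehicle replicate 1, which had 273 normalised reads against 77.6 and 117, adjusted p was 0.141, and without A375R alone vehicle replicate 2 or 3 it was 0.0624 or 0.112. The part of these genes in the UCN2 difference of mixed tumours was not tested.

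UCN, urocortin, the nearest relative of UCN2 that passed the minimum, rose in melanoma comparisons where UCN2 was low. It rose in A375 culture at 48 h (18.7 ± 3.61 to 55.5 ± 3.42; 1.53 ± 0.31, limma adjusted p = 0.00188), in Colo800 (1.38 ± 0.23, adjusted p = 2.49e-05) and in UACC62 (1.84 ± 0.38, adjusted p = 0.00315). In A375 tumours its vehicle libraries held 28.9, 29.8, 18.8 and 29.1 normalised reads and the treated ones 99.9, 108, 99.7 and 114 (1.96 ± 0.18, adjusted p = 4.35e-08). At 6 h, when UCN2 was at its lowest in A375 culture, UCN held 14.7, 30.4 and 17.1 reads against 14.7, 21.7 and 19.8 under vehicle, and the difference did not pass. The calls in Colo800 and UACC62 were lost with no filter on low genes (adjusted p = 0.0551 and 0.0973). UCN was the one gene of 6 in the CRF list with a mean of 10 or more in the A375, Colo800, UACC62 and A375R tables, and no gene of the list reached it in H3122. CRHR2, the receptor of urocortin 2, reached at most 0.744 CPM in any library and CRHR1 at most 1.43, and UCN3 had no reads in any table.

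UCN2 shares its place in the genome with another gene. In RefSeq it overlaps PFKFB4, a glycolysis gene on the same strand, and COL7A1, a collagen gene, lies next to it. The overlap with PFKFB4 covers 1419 of the 2064 bases of UCN2 (68.8%). How the authors' counting treated reads of overlapping genes is not stated in the labels or notes, and the library kit does not mark strand. The level of UCN2 and the sizes of its differences are therefore uncertain. PFKFB4 was at 1821 ± 241 under vehicle and 424 ± 104 at 6 h in A375 culture, and at 1978 ± 113 and 781 ± 46.9 in A375 tumours, so its differences were smaller than those of UCN2 (-2.12 and -1.34 on the log2 scale, beside -4.58 and -6.07). COL7A1 was at 172 ± 49.5 under vehicle and 648 ± 52.1 at 48 h in A375 culture, and at 123 ± 20.3 and 71.3 ± 17.7 in A375 tumours, where it was lower under drug.

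STC1 was low under drug in the same melanoma cultures and A375 tumours as UCN2. A375 culture held 235, 678 and 883 normalised reads under vehicle (599 ± 331, n = 3), 19.7, 43.1 and 84.5 at 6 h and 37.2, 18.6 and 26.5 at 48 h. The vehicle libraries were widely spread, and all drug libraries lay below the lowest of them (12.2-fold and 21.8-fold by the means); the 6 h and 48 h libraries overlapped. Colo800 gave the largest difference, with 1922 and 1965 under vehicle and 8.10 and 9.59 under vemurafenib, 220-fold lower. UACC62 had 240 and 222, then 19.7 and 28.0, 9.70-fold lower. In A375 tumours the values were 1733, 2800, 2601 and 3109 under vehicle and 47.4, 51.8, 78.5 and 72.05 under vemurafenib, 41-fold lower. H3122 had 15 and 16 reads under vehicle and 4 and 1 under crizotinib, and STC1 did not pass the minimum there. In A375R tumours the groups overlapped, alone (6021, 2858 and 3324, then 2085, 2914 and 2494) as well as mixed (3729, 3038 and 2635, then 2911, 1631 and 3017). In CPM, A375R tumours under vehicle overlapped with A375 tumours under vehicle (111 ± 45.3 alone and 103 ± 27.2 mixed, beside 193 ± 40.4).

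STC2 had smaller differences than STC1 and was at its highest in the lung line. In A375 culture it held 159.5, 149 and 212 normalised reads under vehicle and 112, 136 and 429 at 6 h, a wide overlap in which replicate 3 was high, and 61.2, 95.0 and 128 at 48 h, all below vehicle (1.83-fold). The log2 difference at 6 h was 0.13, and without replicate 3 it was -0.47. The same library was high in ATF4 targets: CHAC1 was at 325 there against 18.7 and 31.2 in the other 6 h libraries, and SLC7A11 at 1967 against 490 and 463. Their part in the STC2 value was not tested. Colo800 had 74.4 and 74.1, then 21.3 and 15.3 (4.06-fold lower). A375 tumours had 136, 146, 169 and 157 under vehicle and 45.4, 54.8, 55.7 and 38.6 under vemurafenib (3.13-fold lower). In UACC62, STC2 had 4 reads or fewer in every library and did not pass the minimum. H3122 was the line with the most STC2, at 2919 and 2796 under vehicle and 1183 and 1205 under crizotinib, a 2.39-fold difference with close replicates. In A375R alone the drug libraries (316, 472 and 527) lay just below the vehicle ones (543, 572 and 554), whereas in mixed tumours they overlapped (515, 714.5 and 651 beside 532, 530 and 479). In CPM, A375R tumours under vehicle were above A375 tumours (15.3 ± 0.839 alone and 16.8 ± 2.08 mixed, beside 11.5 ± 1.10), and STC2 was the one of the 4 genes for which this was so. These sizes depend on the scaling. The log2 ratio of A375R alone to A375 tumours went from 0.42 to 1.06 with upper-quartile scaling for STC2, from -1.77 to -1.13 for UCN2 and from -0.79 to -0.15, near 0, for STC1. That of mixed tumours went from 0.55 to 0.99 for STC2, from -1.16 to -0.72 for UCN2 and from -0.90 to -0.47 for STC1.

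**Figure D3:**
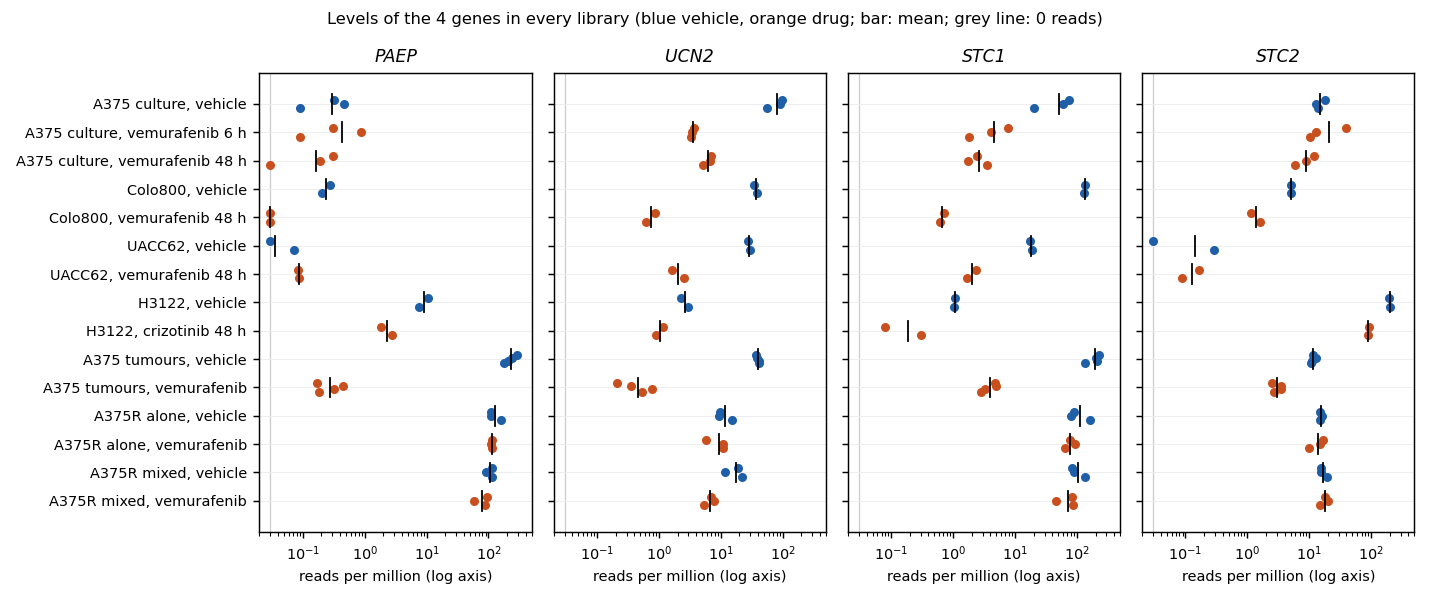
CPM (log axis, grey line at 0 reads) of PAEP, UCN2, STC1 and STC2 in each of 41 libraries of 15 groups, with vehicle in blue, drug in orange and a bar at the group mean. PAEP is above 50 CPM in tumours except treated A375 tumours, and STC2 is highest in H3122 (198.5 and 90.4 CPM).

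PAPPA, IGFBP5, IGFBP4 and IGF1R, of the PAPP-A and IGF list kept beside the stanniocalcins, had calls under drug. IGF1 also rose in UACC62 (3.92 ± 0.60, limma adjusted p = 0.000599), from 0.462 to 20.3 normalised reads on average. It passed the minimum mean there only through the drug libraries, where it was high. IGF2 fell in H3122 (-1.13 ± 0.30, adjusted p = 0.00854). IGF2R fell in A375 tumours (-0.24 ± 0.09, adjusted p = 0.0262), where its groups overlapped. PAPPA, which encodes the protease, fell in A375 tumours from 119, 157, 107 and 114 normalised reads to 33.3, 29.4, 33.8 and 32.2 (-1.90 ± 0.16, limma adjusted p = 1.76e-08). In A375 culture it held 9.45 to 28.2 under vehicle and 6.20 to 24.3 at 48 h, which overlap. IGFBP5, an IGF-binding protein that PAPP-A2 cleaves, rose at 48 h in A375 culture (106 ± 68.4 to 527 ± 106; 2.50 ± 0.41, adjusted p = 0.000566), in A375 tumours (1.53 ± 0.17), in Colo800 (0.89 ± 0.24; with no filter adjusted p = 0.0529) and in H3122 (3.19 ± 0.17), and fell in UACC62 (-2.88 ± 0.14, adjusted p = 7.16e-07). IGFBP4, a substrate of PAPP-A, rose in A375 culture at 48 h (0.79 ± 0.14) and A375 tumours (0.93 ± 0.15), and fell in Colo800 (-1.96 ± 0.37; with no filter adjusted p = 0.11) and H3122 (-1.14 ± 0.10). IGF1R, the IGF-1 receptor, fell in the 3 melanoma cultures at 48 h, most in Colo800 (-2.03 ± 0.05), and rose in H3122 (0.70 ± 0.09). With no filter its calls in UACC62 and H3122 were lost (adjusted p = 0.0535 and 0.0667). Over the list of 9 genes, 0 of 5 tested rose and 1 fell at 6 h with limma, edgeR and DESeq2 (no further gene at an unadjusted p under 0.05); the call, IGFBP5 (-1.80 ± 0.41, adjusted p = 0.0328), was lost with no filter (adjusted p = 0.172) and when any of 5 libraries, all but vehicle replicate 1, was left out (adjusted p = 0.0546 to 0.101). The list had 2 higher and 1 lower of 5 at 48 h, 1 and 3 of 4 in Colo800, 1 and 2 of 4 in UACC62, 2 and 3 of 5 in H3122 and 2 and 2 of 5 in A375 tumours. Beside them, the shares of all genes called higher and lower were 24.3% and 25.6% at 48 h, 36.0% and 37.3% in Colo800, 26.9% and 29.6% in UACC62, 22.1% and 24.0% in H3122 and 34.2% and 34.0% in A375 tumours (1.07% and 3.33% at 6 h). One lower call was lost in H3122 without crizotinib replicate 1, and in A375 tumours without vehicle replicate 3 or 4 or vemurafenib replicate 1 or 4; in UACC62, 2 were higher without vemurafenib replicate 1. With limma, 0 of 5 passed under drug in A375R alone (all genes 0.305% higher, 0.487% lower). In mixed tumours 1 rose and 1 fell (1.24%, 2.23%). IGFBP4 rose there (0.64 ± 0.13, adjusted p = 0.0143) and PAPPA fell from 175 ± 159 to 18.8 ± 6.30 (-2.84 ± 0.52, adjusted p = 0.00735). Both calls were lost with no filter (adjusted p = 0.0712 and 0.0881). That of IGFBP4 was also lost with the 2 groups alone or some libraries left out (adjusted p = 0.0527 to 0.0736). Between mixed and alone A375R tumours under vehicle, PAPPA (13.6 ± 2.50 to 175 ± 159) and IGFBP5 (16.1 ± 6.81 to 153 ± 141) rose, and the first mixed tumour again held the most of both (358 and 315). Without that library PAPPA still passed (with no filter on low genes it had adjusted p = 0.0705), while IGFBP5 had adjusted p = 0.111 (0.164 with no filter); without A375R alone vehicle replicate 1 or 2 it had 0.0842 or 0.0508.

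Most HIF targets fell at 48 h in culture and in A375 tumours. Of 13 tested in A375 culture at 48 h, 1 rose and 11 fell (median -1.05, all genes 0.00), and at 6 h none rose and 1 fell, ANGPTL4, an angiopoietin-like protein (67.4 ± 17.9 to 9.47 ± 4.73; -2.78 ± 0.39, limma adjusted p = 0.00222). At 6 h 8 were lower and none higher at an unadjusted p under 0.05, edgeR called 1 and DESeq2 3, all lower, and with the replicate number as a block 5 were lower. Without vehicle replicate 1, 3 were lower, and without 6 h replicate 1 or 3, 2 were. In Colo800 2 of 12 rose and 10 fell (median -1.54), in UACC62 1 of 15 rose and 11 fell (-1.42), in H3122 1 of 13 rose and 10 fell (-1.17), and in A375 tumours 3 of 15 rose and 11 fell (-1.27), beside medians of -0.01 to 0.00 for all genes. The shares of all genes called lower in these 5 comparisons were 25.6% (A375 culture at 48 h), 37.3%, 29.6%, 24.0% and 34.0%, with 24.3%, 36.0%, 26.9%, 22.1% and 34.2% higher, and at 6 h 3.33% and 1.07%. The higher call in UACC62 was lost without vehicle replicate 2 or vemurafenib replicate 1, and H3122 had 2 higher without vehicle replicate 1. LDHA, lactate dehydrogenase A, fell in all 5, with log2 changes of -1.66 in H3122 to -2.69 in Colo800 (24550 ± 334 to 3798 ± 239). NDRG1, a stress-response gene, fell in Colo800 (-2.21 ± 0.04) and UACC62 (-2.46 ± 0.08). SLC2A1, the glucose transporter GLUT1, fell in H3122 (-1.47 ± 0.08), where STC1 was barely read. Against the list, KDM3A, a histone demethylase, rose in A375 culture at 48 h (0.79 ± 0.20) and VEGFA, the vascular growth factor, rose in A375 tumours (1.07 ± 0.15). In A375R, none of 15 passed in either direction, alone or mixed, beside 0.305% higher and 0.487% lower of all genes alone and 1.24% and 2.23% mixed. There 9 were lower and none higher in A375R alone at an unadjusted p under 0.05, with 4 lower by DESeq2 and none by edgeR, and in mixed tumours 1 was higher at an unadjusted p under 0.05 and none by edgeR or DESeq2.

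ATF4 targets, listed for STC2, mostly fell in H3122, the line with the most STC2. There 11 of 13 fell and none rose with limma (median -1.01, all genes -0.01), beside 24.0% lower and 22.1% higher of all genes, and none rose at an unadjusted p under 0.05, with edgeR or with DESeq2. SLC7A11, the cystine transporter, went from 5356 ± 1070 to 817 ± 106 (-2.70 ± 0.13, adjusted p = 2.40e-08), and CHAC1, which breaks down glutathione, from 604 ± 106 to 88.4 ± 6.03 (-2.75 ± 0.14). In melanoma the list had 3 higher and 6 lower of 14 in A375 culture at 48 h (all genes 24.3% and 25.6%), 5 and 7 in Colo800 (36.0% and 37.3%), 4 and 6 in UACC62 (26.9% and 29.6%) and 6 and 3 in A375 tumours (34.2% and 34.0%). At 48 h in A375 culture 3 were lower without vehicle replicate 3 or without 48 h replicate 1. ATF3, a stress-induced transcription factor, rose in A375 culture at 48 h (3.01 ± 0.47), Colo800 (2.25 ± 0.06) and UACC62 (3.20 ± 0.12). SLC7A11 fell in Colo800 (-1.63 ± 0.05), and PHGDH, the first enzyme of serine synthesis, fell in A375 culture at 48 h (-0.91 ± 0.21) and UACC62 (-1.16 ± 0.11). NUPR1, a stress-response gene, rose in A375 tumours (6.51 ± 3.78 to 65.9 ± 4.18; 3.30 ± 0.31). At 6 h none of 14 passed with limma or edgeR (all genes 1.07% higher and 3.33% lower), 6 h replicate 3 being the library with the high CHAC1 and SLC7A11; 3 were higher and 1 lower at an unadjusted p under 0.05 and DESeq2 called 1 lower; with the block 1 was higher and 1 lower. In mixed A375R tumours 5 rose and 1 fell (all genes 1.24% and 2.23%), but without mixed vehicle replicate 1 only 1 was higher and 0 lower, and without vemurafenib replicate 2 or 3, 3 were higher. In A375R alone, where 0.305% of all genes were higher and 0.487% lower, none passed with limma or edgeR (2 higher and 4 lower at an unadjusted p under 0.05; DESeq2 called 2 higher and 2 lower).

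**Figure D4:**
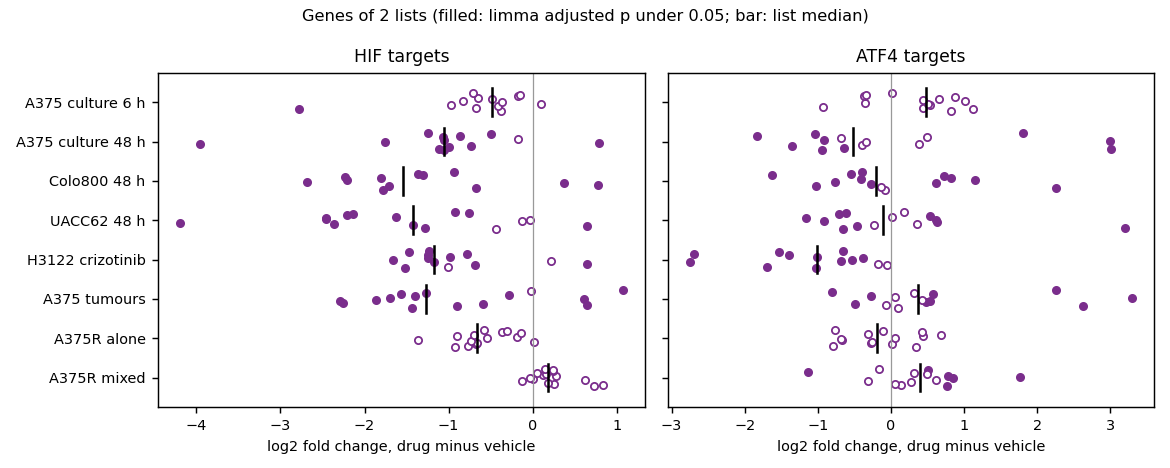
Log2 fold changes (drug minus vehicle) of single genes of the HIF target and ATF4 target lists in 8 drug comparisons; filled points passed a limma adjusted p under 0.05 and bars mark the list median. HIF targets lie mostly left of 0 in the 5 comparisons at 48 h or in A375 tumours (11, 10, 11, 10 and 11 lower), and ATF4 targets do so in H3122 (11 lower of 13).

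Mixing A375R with A375 was the comparison that the choice of the 4 genes did not use, and it was tested. Under vehicle, 0 of the 4 genes passed with limma in mixed against alone tumours, beside 1.93% of all genes higher and 1.37% lower. PAEP was lower in each mixed library than in each A375R alone library (3270 ± 236 beside 4604 ± 1017), with a log2 difference of -0.47 ± 0.16 (SE; ± 2 SE, -0.79 to -0.15) and adjusted p = 0.112. STC2 was lower in each mixed library as well. The share of all genes that separate in this way was not taken, so nothing is read from it. PAEP was the 1 gene at an unadjusted p under 0.05. DESeq2 called it (adjusted p = 0.0469) and edgeR called none. Marker sums differed between the same libraries: leukocyte 214 to 264 CPM alone and 120 to 161 mixed, KRT18 and KRT8 of the lung epithelial list 605 to 647 and 726 to 1090, and melanocytic 11.8 to 21.9 and 30.5 to 54.1. Their part in the PAEP difference was not tested. UCN2 gave 0.36 ± 0.25 (adjusted p = 0.483), STC1 -0.31 ± 0.25 (adjusted p = 0.541) and STC2 -0.12 ± 0.16 (adjusted p = 0.757), with ± 2 SE of -0.14 to 0.86, -0.81 to 0.19 and -0.44 to 0.20. Under vemurafenib, again 0 of 4 passed with limma, edgeR or DESeq2, beside 0.211% of all genes higher and 0.0291% lower. STC2 (438 ± 110 alone, 627 ± 102 mixed; 0.54 ± 0.16, adjusted p = 0.221) and PAEP (3623 ± 168 alone, 2820 ± 651 mixed; -0.39 ± 0.16, adjusted p = 0.332) were the 2 genes at an unadjusted p under 0.05. Of the 4 genes, only PAEP was lower in each mixed library than in each A375R alone library, and again no share of all genes was taken. STC1 (-0.03 ± 0.25, adjusted p = 0.979) and UCN2 (-0.29 ± 0.25, adjusted p = 0.681) gave intervals of -0.53 to 0.47 and -0.79 to 0.21.

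Set in order by CPM, each gene had its own ranking of the 15 groups. PAEP ran from 228.5 in A375 tumours under vehicle over the 4 A375R groups (126 to 79.9, neighbours overlapping) to H3122 (8.94, then 2.26 under crizotinib), and every other group was at 0.424 or less. UCN2 was highest in A375 culture under vehicle (81.6 ± 22.9), followed by A375 tumours (39.4) and Colo800 (36.7) under vehicle, which overlapped, and UACC62 (28.6); it was lowest in treated A375 tumours (0.467 ± 0.242). STC1 was highest in A375 tumours (193) and Colo800 (133) under vehicle, whose ranges overlapped, then in the 4 A375R groups (111 to 71.6) and A375 culture under vehicle (51.0), each overlapping with its neighbour. STC1 was lowest in H3122 under crizotinib (0.190). STC2 was at 198.5 ± 8.77 and 90.4 ± 2.34 in H3122 under vehicle and crizotinib, and the next 8 groups, all of A375 and A375R, lay between 20.7 and 8.86 with overlapping neighbours. It ended with UACC62 (0.143 and 0.128).

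The genes with the pattern most like each of the 4 were sought among 10689 genes, by Pearson's r over the 15 group means. Clone-type, LOC and antisense names were left out, as were all names ending in P or in P and digits. That last pattern, meant for pseudogenes, also removed DUSP6, IGFBP4 and IGFBP5, so these could not be found. Groups of a table share their processing, and tumour groups share the kind of RNA, so r is a description. PAEP was most like OBP2A (r = 0.95), MTRF1L, a mitochondrial release factor, and TPM4, a tropomyosin (0.947 each). The value of r does not weigh the size of a difference. In A375 tumours under vehicle and vemurafenib, MTRF1L was at 36.4 and 17.1 CPM and TPM4 at 787 and 331. PAEP was at 228.5 and 0.279 CPM in the same tumours. UCN2 was most like SLC20A1, a phosphate transporter (0.915), GPR3, an orphan receptor (0.893), and SPRY4 (0.854). STC1 was most like COL13A1, a transmembrane collagen (0.934), SH2B3, an adaptor protein (0.902), and CYB5B, a cytochrome b5 (0.901). STC2 was most like GALNT6, a glycosyltransferase (0.965), ABCC3, a transporter (0.954), and PPP1CA, a phosphatase subunit (0.952), and H3122 is where STC2 and GALNT6 were both highest: GALNT6 stood at 247 and 232.5 CPM there and at 14.97 or less elsewhere. Among the 4 genes, r was 0.795 for UCN2 with STC1, 0.65 for PAEP with STC1 and -0.041 for STC1 with STC2.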

How the data were processed

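RNA sequencing of 41 samples was analysed from 6 tables. The deposited values are signal: the authors divided the reads counted for a gene by a library size factor. STAR 2.3.0e, HTSeq 0.5.4 and DESeq 1.18.0 are named in the submitters' processing notes, as are hg19 and mm9, with no roles given; nothing states how mouse reads were treated. Dividing by each library's step recovered whole reads for 100% of values (tolerance 0.1, largest deviation 0.00039). Depth of 8063754 to 42843612 reads limits low values: 3 reads, the limit a count of 0 allows, are 0.07 to 0.372 CPM (scaled to 1000000).

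Tests ran within a table, as tables were normalised separately: limma 3.58.1 in R 4.3.3 on log2(value + 1) with a mean-variance trend, all groups of the table, genes with a table mean of at least 10, and two-sided Benjamini-Hochberg adjusted p under 0.05 over all genes tested. Log2 changes on this scale understate those of low genes. A gene near 0 in some groups could pass the minimum mean through the group where it was high. The 4 genes and all lists were chosen with earlier results of these data known. Named beside the 4 genes are SPRY4 and DUSP6, up to 2 genes per list, comparison and direction with the smallest adjusted p, the 3 genes most like each in pattern, and the nearest listed genes; fewer are named than this takes. SOX10, a listed marker, and the values of listed genes in comparisons where they were not called were picked after values were seen. Alternatives were pseudocounts of 0.5 and 5, no filter, a filter at 50, quantile normalisation, the 2 groups alone, a replicate block, edgeR 4.0.16, DESeq2 1.42.0 and leaving out each library. In A375 culture, vehicle and 6 h libraries of one number deviated together (r = 0.567, 0.31 and 0.566), so the numbers may pair them. For vehicle and 48 h libraries r was 0.402, 0.028 and 0.32. The main fits did not use this pairing, which enters only in the alternative with the replicate block. The limma, edgeR and DESeq2 fits were tested on simulated data with 200 changed genes in 3 of the comparisons. The simulated counts had the same fixed dispersion for all genes, so they do not show how the fits perform at the spread of these libraries.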

Additional observations from a re-analysis of the deposited data

Results flagged for a closer look

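None of PAEP, UCN2, STC1 and STC2 had a library standing apart from the others of its group in the 8 sets of 4 libraries that could be checked (A375 tumours, critical value 0.829). Genes of the lists and neighbours of the 4 genes are given here because, under vemurafenib, every library moved up in one comparison and every library moved down in another; the differences between the comparisons were not tested, and values are log2 changes. Among secreted proteins, APOD was 1.44 in A375 culture at 48 h and -4.31 in mixed A375R tumours. DKK1 was 0.70 in mixed A375R tumours and -6.22 in A375 tumours. VEGFA was 1.07 in A375 tumours and -1.24 in A375 culture at 48 h. IGFBP4 was 0.93 in A375 tumours and -1.96 in Colo800, and IGFBP5 was 2.50 in A375 culture at 48 h and -2.88 in UACC62. Of the ATF4 targets, ATF3 was 3.20 in UACC62 and -0.79 in A375R alone, CHAC1 was 0.48 in A375 tumours and -0.28 in Colo800, PHGDH was 0.78 in mixed A375R tumours and -1.16 in UACC62, and SLC7A11 was 0.42 in A375R alone and -1.83 in A375 culture at 48 h. FOXO1 was 1.04 in A375 tumours and -1.22 in UACC62. Of the neighbours, COL7A1 was 2.18 in UACC62 and -0.80 in A375 tumours, and BOD1, which lies next to STC2, was 0.21 in mixed A375R tumours and -0.47 in A375 tumours.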

How the results depend on the processing

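The 4 genes had a lower mean log2 level under drug in 27 of 32 pairs of gene and comparison, 27 to 28 when a library was left out and 28 with a pseudocount of 5. The rule chose the genes on these contrasts, so nothing is read from this count. It also includes pairs under the minimum mean, such as PAEP in the melanoma cultures. Between mixed and alone A375R tumours, 0 of the 4 were called under vehicle with limma and 1 (PAEP) with DESeq2; the cause was not tested. With the replicate number as a block, 0 were called under vehicle and 0 under vemurafenib. The listed genes gave 186 calls over the 8 drug comparisons, 205 with the replicate block, 188 with edgeR and 192 with DESeq2 on the recovered reads, 141 with no filter, 166 with a minimum mean of 50 and 179 to 188 when a library was left out. In H3122 the numbers may be crossed (r = -0.209); with crossed numbers as the block the list calls came to 189. A pairing of the A375 vehicle and 6 h libraries by replicate number rests only on their deviations. With no filter, the calls of NUPR1, SLC7A11, PHGDH, IGFBP4, LCN1, PAPPA and DKK1 in mixed A375R tumours against vehicle were lost (adjusted p = 0.0646 to 0.161). Values of 1 to 10 reads, such as PAEP in treated A375 tumours, are limited by depth.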
